A study of Homo sapiens with 12 samples.

Results

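The 100 circular RNA rows with the highest mean level in EV along cardiac differentiation were examined, out of 6619 rows of the circular RNA count table. They were selected on the mean over the 12 libraries of CPM, counts scaled to the total of that table, so their high level is a description and was not tested. Rows with identical counts in every library were taken as 1 locus, which gave 95 member loci of 3733 loci in the table. The extracellular vesicles (EV) came from the medium of iPS(IMR90)-4 cells, an induced pluripotent stem cell line, and of the cells derived from them. Small RNA was sequenced from hiPSC-EV (undifferentiated cells), CPC-EV (cardiac progenitors), CMi-EV (immature cardiomyocytes) and CMm-EV (cardiomyocytes matured in glucose-free medium with galactose and fatty acids), with 3 independent cultures in each of the 4 groups. All 4 groups share 1 cell line, and the culture medium and the day of EV collection changed along with the stage, as did the length of conditioning, other than between CMi-EV and CMm-EV. The cells of both cardiomyocyte groups were also kept as aggregates in suspension, and the undifferentiated cells as monolayers. The effects of stage, medium, collection and form of culture cannot be told apart.

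Circular RNAs are closed transcripts that arise when a splice donor is joined to an acceptor upstream of it, usually within a protein-coding gene. Having no free ends, they withstand exonucleases and outlast most linear transcripts, and they are found in vesicles as well as in cells. Heart muscle is known for many of them, for instance from the titin gene TTN. A short read counts as circular with certainty only if it crosses the junction, and a read from elsewhere in the circle has the same sequence as the linear RNA of those exons. Whether the counted reads crossed junctions is not given in the sources used here. The files do not pair the circular RNA identifiers with host genes, so loci are given by identifier only.

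The circular RNA table held between 11653 and 38287 counts per library. At that depth 1 count was worth 26.1 to 85.8 CPM, and a count of 0 allowed up to 3 counts, or 78.4 to 257 CPM depending on the library; these limits cover counting error only. All 100 members passed the filter of 30 counts summed over the 12 libraries that was used for testing, with 313 to 18434 summed counts each. Counts above 0 were present in all 12 libraries for 62 of the 100 rows, and the least widely detected member had counts in 6 libraries. In comparison, 222 of the 6619 rows of the table had counts in all 12 libraries and 2495 had counts in 1 library.

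Circular RNA, as counted here, made up a small part of the small RNA counts in each library. Its share of the counts on 5 RNA classes (circular RNA, miRNA, piRNA, tRNA and annotated transcripts) was 0.923%, 0.400% and 0.264% in the hiPSC-EV libraries and 0.664%, 0.658% and 0.734% in the CPC-EV libraries. In CMi-EV it was 0.893%, 0.645% and 0.828%, and in CMm-EV it was 1.67%, 0.449% and 0.265%. The 3 CPC-EV libraries lay close together, whereas the hiPSC-EV and CMm-EV libraries spread over a range that held every CPC-EV and CMi-EV library. In order of stage, group means were 0.529% ± 0.348, 0.685% ± 0.0421, 0.789% ± 0.129 and 0.794% ± 0.763 (SD, n = 3 each), and they did not differ beyond the spread between libraries (two-sided exact permutation test over 369600 assignments, p = 0.904). The highest share, in CMm-EV replicate 1, and the share of hiPSC-EV replicate 1 came with the lowest totals over the 5 classes, 1280771 and 1261909 counts. The part of depth in these shares was not tested. With miRNA left out of the classes, the group means were 1.28%, 1.47%, 2.67% and 4.58% in order of stage. Their SDs were 0.711, 0.0944, 0.834 and 2.42 (n = 3 each). The exact permutation test then gave p = 0.0384, and it was not repeated with libraries left out. CMm-EV had 7.22%, 4.06% and 2.47%, the last of them below CMi-EV replicates 1 and 3, at 3.05% and 3.25%. CMi-EV replicate 2, at 1.72%, was below hiPSC-EV replicate 1, at 2.09%.

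The members held 55.3% of all circular RNA counts, and 65 rows were enough to reach 50% of them. By library, the members took 57.6%, 62.8% and 61.4% of the circular RNA counts in hiPSC-EV and 41.5%, 40.9% and 48.8% in CPC-EV. They took 65.6%, 52.9% and 54.3% in CMi-EV and 62.1%, 65.8% and 56.0% in CMm-EV. All 3 CPC-EV libraries were below the 9 others, that is, a larger part of the CPC-EV counts lay on less abundant rows. This share depends on how the members were chosen and was not tested.

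**Figure D1:**
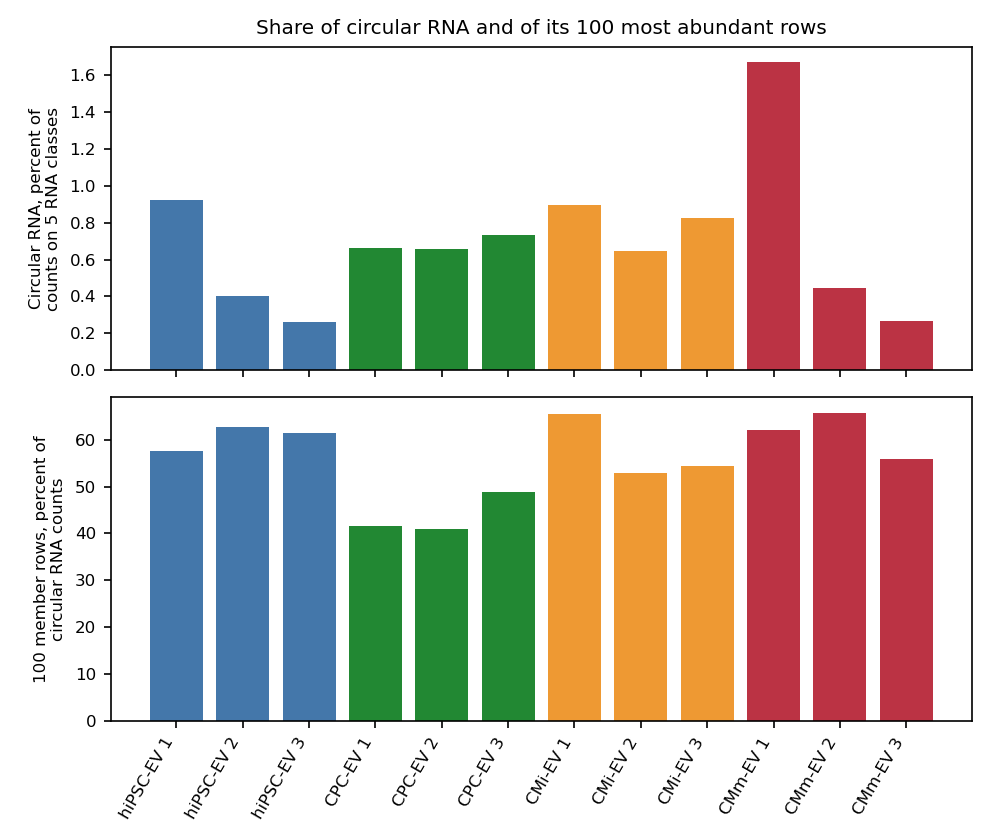
Share of circular RNA in the counts on 5 RNA classes (upper bars, percent) and share of the 100 member rows in the circular RNA counts (lower bars, percent) for each of the 12 libraries, coloured by EV group. The upper share ran from 0.264% to 1.67% with overlapping groups, and in the lower bars the 3 CPC-EV libraries stand below the others.

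Levels among the members covered a 52.2-fold range. The first row, hsa_circ_0001446, had a mean of 70145 CPM, 1.99 times that of the second row, and the median member had 2610 CPM. At the limit of the rule, the last row inside, hsa_circ_0137181, had a mean of 1345 CPM and the first row outside, hsa_circ_0007359, had 1336 CPM. These 2 neighbours were unlike in how they reached that mean. The row inside had 0 counts in 6 libraries and 7456 CPM in CPC-EV replicate 3, whereas the row outside had counts in all 12 libraries, from 418 to 2469 CPM. Ranking by the median CPM in place of the mean retained 80 of the 100 rows.

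Some of the 100 rows had near-equal counts. The count of a row need not be whole in this table: 39.3% of the member values above 0 were whole numbers (within 0.001), against 35.7% in the other rows; 9 members had whole values in every library. Near-equal rows, among them the 10 rows that formed 5 loci of identical counts, were grouped into families by a Bray-Curtis distance of at most 0.1 over the 12 libraries, a limit set after the values were seen. This gave 77 families, of which 15 held more than 1 row and together 38 of the 100 rows. The largest family had 6 rows, at ranks 14 to 19. Its first row, hsa_circ_0003072, had 3230, 1819 and 807 CPM in hiPSC-EV, 7455, 4122 and 10188 CPM in CPC-EV, 12117, 1568 and 7103 CPM in CMi-EV, and 17989, 21223 and 8099 CPM in CMm-EV. In CPM the hiPSC-EV libraries were the lower ones and the groups overlapped, with CMi-EV replicate 2 among the hiPSC-EV values (edgeR, FDR = 0.204). Rows of 1 family are not separate measurements, so that the 95 loci give fewer than 95 independent values.

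**Figure D2:**
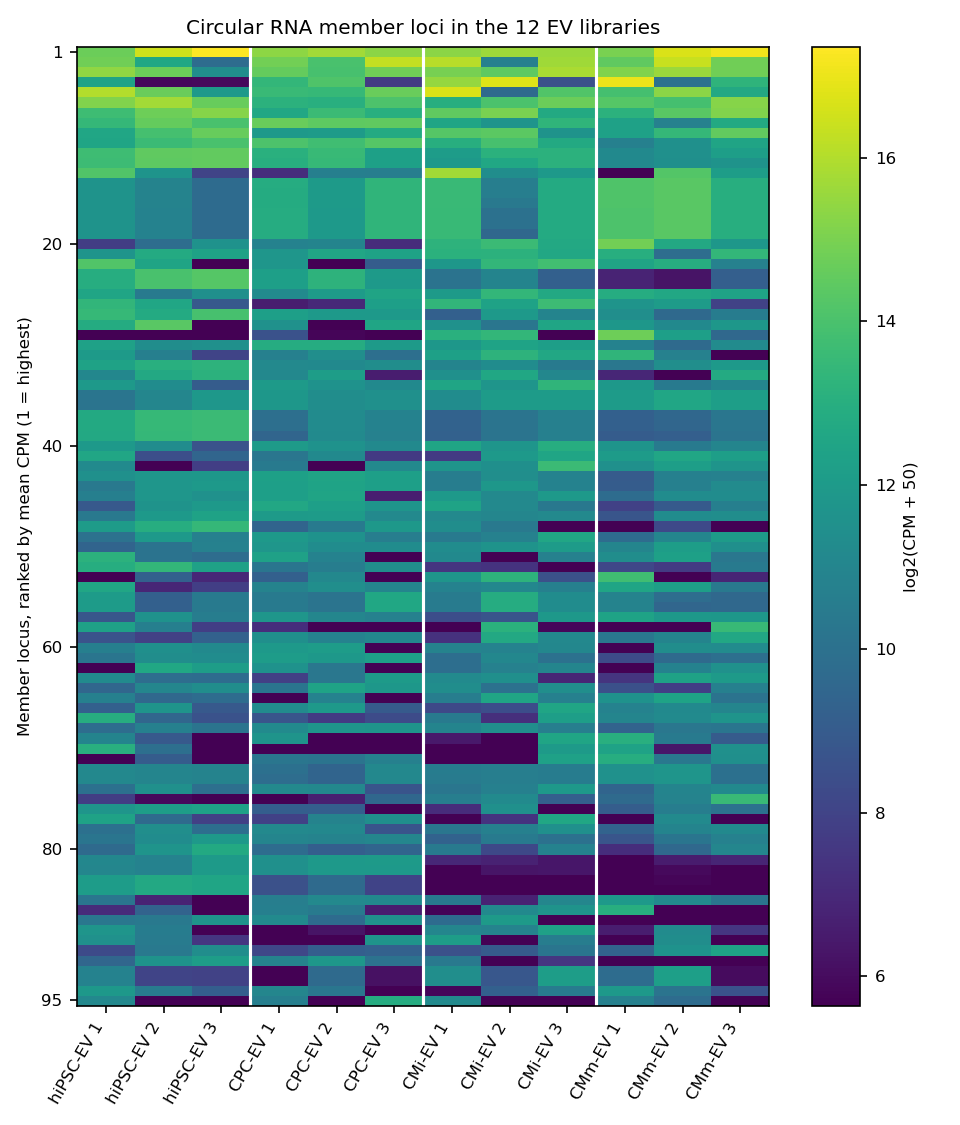
Level of each of the 95 member loci (rows, ranked by mean CPM) in each of the 12 libraries (columns), as log2 of CPM plus 50. Blocks of equal colour in neighbouring rows are families of near-equal rows, and dark cells within a group mark libraries at or near 0 beside replicates with counts.

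In CPM, the leading locus varied widely within 2 of the groups. hsa_circ_0001446 had 26688, 93115 and 167179 CPM in the hiPSC-EV libraries, 41974, 54222 and 40121 CPM in CPC-EV, 40477, 50758 and 49275 CPM in CMi-EV, and 32513, 104155 and 141262 CPM in CMm-EV. It was even in CPC-EV and CMi-EV and uneven in the other groups, where replicate 1, the library with the lowest total of its group over the 5 classes, had the lowest level (FDR = 0.492 across the 4 groups). In the RPM of the authors, scaled to library totals, it had 205, 336 and 402 in hiPSC-EV and 432, 435 and 356 in CMm-EV, so that the unevenness in CMm-EV was seen on table totals only. Its share of the circular RNA counts reached 16.7% in hiPSC-EV replicate 3, the library with the largest total over the 5 classes, 8750512 counts. The part of depth in this level was not tested.

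The widest spread among the leading loci was that of hsa_circ_0140729. It had 5406, 10.2 and 10.8 CPM in hiPSC-EV, 10610, 18113 and 155 CPM in CPC-EV, 46018, 113803 and 330 CPM in CMi-EV, and 132602, 1012 and 9791 CPM in CMm-EV. Each group held at least 1 library with a level under 0.1 of its highest one, so that the 4 groups overlapped. The locus did not pass the test (FDR = 0.204), though it passed in 9 of 24 alternative fits, with an FDR from 6.52e-06 to 0.6. hsa_circ_0089253 and hsa_circ_0069749 were uneven as well, with 823 to 29177 CPM and 4040 to 66213 CPM in hiPSC-EV, and with 1665 to 70012 CPM and 778 to 106518 CPM in CMi-EV (FDR = 0.37 and FDR = 0.584). In both, hiPSC-EV replicate 3 and CMi-EV replicate 2 were the lowest libraries of all 12.

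Other leading loci did not pass the test either. hsa_circ_0003163 was between 8088 and 54683 CPM over the 12 libraries (FDR = 0.35), and hsa_circ_0008347 between 15762 and 59653 CPM in every library other than hiPSC-EV replicate 3, which had 2628 CPM (FDR = 0.7). hsa_circ_0089761 and hsa_circ_0089763 had ranges of 6524 to 38472 CPM and 3231 to 25092 CPM (FDR = 0.501 and FDR = 0.429).

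In 2 leading loci the CPM were lower in both or 1 of the cardiomyocyte groups, without passing the test. hsa_circ_0094233 had 10984, 24331 and 16055 CPM in hiPSC-EV, 25839, 22318 and 22834 CPM in CPC-EV, 5801, 3302 and 10024 CPM in CMi-EV, and 5123, 1723 and 6814 CPM in CMm-EV. Every hiPSC-EV and CPC-EV library was above every CMi-EV and CMm-EV library, with hiPSC-EV replicate 1 and CMi-EV replicate 3 almost level (FDR = 0.208). In the RPM of the authors this separation was not seen, since hiPSC-EV replicate 3, at 38.6, was below CMi-EV replicates 1 and 3, at 46.1 and 70.3, and CMm-EV replicate 1, at 68.1. hsa_circ_0107201 had 5835 to 16367 CPM in hiPSC-EV, 13791 to 19883 CPM in CPC-EV and 6858 to 15618 CPM in CMi-EV, and 1637, 2846 and 5650 CPM in CMm-EV, where all 3 libraries were below the other 9, in RPM as well (FDR = 0.247). CMi-EV lay within the hiPSC-EV range in CPM and above all hiPSC-EV libraries in RPM.

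**Figure D3:**
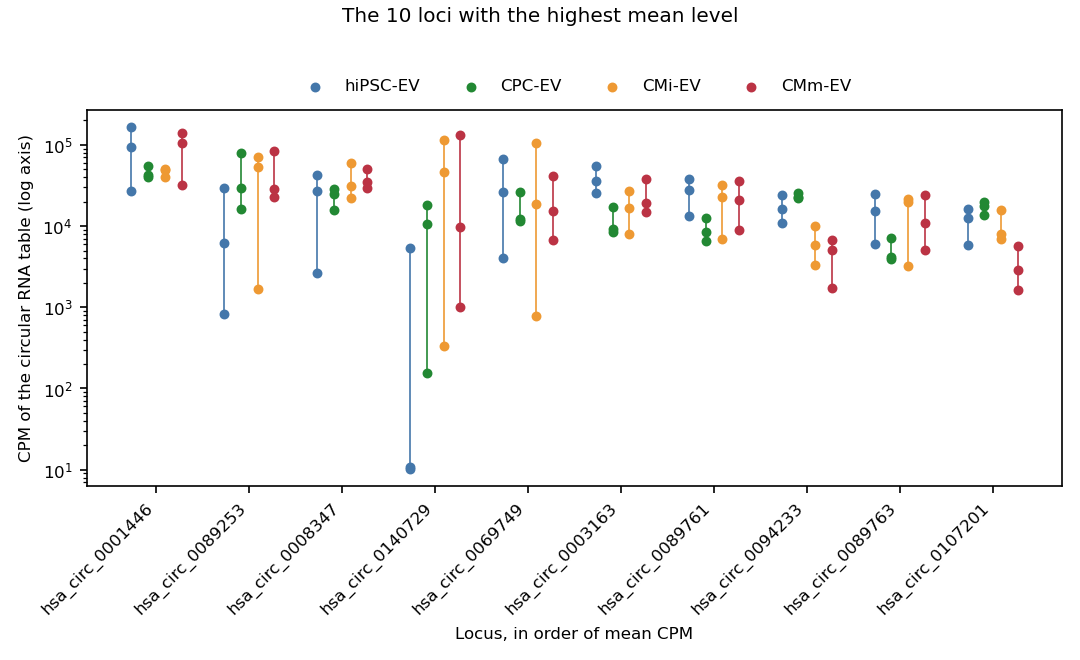
Level of the 10 loci with the highest mean (CPM of the circular RNA table, log axis) in the 12 libraries, coloured by EV group; each point is a library and each line joins the lowest and the highest library of a group. For hsa_circ_0140729 the libraries ran from 10.2 to 132602 CPM, and for most of the other loci the groups overlap.

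Across the 4 EV groups, 8 of the 95 member loci differed (edgeR quasi-likelihood F-test, FDR of at most 0.05), against 16 of 1052 loci tested, or 1.52%. The members are the loci with the most counts, and the share called among them, 8.42%, was not tested against the rest. Ranking on the mean also admits loci that are high in 1 group only. For instance, hsa_circ_0132733 had a mean of 1528 CPM through 5671 CPM in hiPSC-EV, with 440 CPM or less in each other group. The 2 shares are thus not on an equal footing. The contrast depended on the filter, since with a minimum of 5 CPM in each library of a group the counts were 12 of 94 member loci and 60 of 612 loci. At an unadjusted p under 0.05 there were 29 member loci and 245 loci in all. The 8 loci belonged to 5 families, so that they stand for 5 separate patterns at most. In 7 of the loci the highest group mean was in hiPSC-EV or CPC-EV, and in 1 it was in CMm-EV, through CMm-EV replicate 1. In bulk vesicle RNA, fewer vesicles that carry a transcript and less of it per vesicle cannot be told apart.

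The lowest FDR was that of a family of 4 rows forming 2 loci, at ranks 85 to 88. hsa_circ_0132733 had 4396, 6708 and 5910 CPM in hiPSC-EV and 330, 785 and 204 CPM in CPC-EV, and no counts in the 3 CMi-EV libraries. In CMm-EV it had 0.2 counts in 1 library and 0 in the others. The groups hiPSC-EV and CPC-EV did not overlap with each other or with the cardiomyocyte groups (FDR = 0.000638). The mean of 5671 CPM in hiPSC-EV was 12.9 times that in CPC-EV, or 21.2 times without CPC-EV replicate 2, and CMi-EV was at least 35.5-fold lower than hiPSC-EV when set at the limit of 3 counts per library. The other locus of the family had the same counts in the hiPSC-EV, CPC-EV and CMi-EV libraries.

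hsa_circ_0008049 had a lower mean at each later stage. It had 7695, 16398 and 19906 CPM in hiPSC-EV, 4816, 9543 and 4090 CPM in CPC-EV, 1043, 1866 and 544 CPM in CMi-EV, and 60.8, 26.3 and 532 CPM in CMm-EV. Only hiPSC-EV and CPC-EV overlapped, through hiPSC-EV replicate 1 and CPC-EV replicate 2 in CPM and through hiPSC-EV replicate 3 and CPC-EV replicate 2 in RPM (FDR = 0.00806). In CPM, CMi-EV replicate 3 and CMm-EV replicate 3 were almost level, with 8.24 and 8 counts. Group means were 14666 ± 6287 (SD, n = 3), 6149 ± 2961, 1151 ± 668 and 206 ± 282 CPM in order of stage, and the CMm-EV mean rested on 10.1 counts. Of these, 8 were in CMm-EV replicate 3, without which the CMm-EV mean was 43.6 CPM. The locus did not pass without hiPSC-EV replicate 3 (FDR = 0.0558) or with scaling to the library totals of the authors (FDR = 0.0597), and it passed in the other 22 of 24 alternative fits, with an FDR from 9.41e-05. A second locus of the same family differed from it in CPC-EV replicate 3 alone, with 3890 CPM.

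A further family of 2 loci, at ranks 83 and 84, was present in hiPSC-EV and CPC-EV at levels that overlapped in CPM, and near 0 in both cardiomyocyte groups. Its first locus had 2102, 1768 and 4113 CPM in hiPSC-EV and 2925, 3826 and 4061 CPM in CPC-EV, and between 0 and 2 counts in each CMi-EV and CMm-EV library (FDR = 0.00806). In RPM every CPC-EV library of this locus was above every hiPSC-EV library, the nearest being 16.187 and 16.178. The last locus of this direction, at rank 53 and in no family, had 7713, 10622 and 5096 CPM in hiPSC-EV, 1126, 1514 and 2613 CPM in CPC-EV, 126, 115 and 0 CPM in CMi-EV, and 234, 158 and 1379 CPM in CMm-EV (FDR = 0.0223). In CPM its hiPSC-EV libraries were above all others and CMm-EV replicate 3 lay among the CPC-EV values, whereas in RPM hiPSC-EV replicate 3, at 12.3, was below CPC-EV replicate 3, at 15.97, and CMm-EV below CPC-EV. This locus did not pass in 3 of 24 alternative fits, one of them without hiPSC-EV replicate 3 (FDR = 0.058), with an FDR from 0.000426 to 0.134.

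The opposite direction was seen in hsa_circ_0003737. It had 0 counts in the 3 hiPSC-EV libraries, 337, 6.53 and 0 CPM in CPC-EV, 8613, 10709 and 0 CPM in CMi-EV, and 27437, 4838 and 731 CPM in CMm-EV. In CPM all CMm-EV libraries were above the hiPSC-EV and CPC-EV libraries, and in RPM all but CMm-EV replicate 3, which was just below CPC-EV replicate 1 (1.84 against 1.86), while CMi-EV replicate 3 was at 0 as in hiPSC-EV (FDR = 0.00471). Against the limit of 3 counts per library, the CMm-EV mean of 11002 ± 14381 CPM (SD, n = 3) was at least 57.9-fold higher than hiPSC-EV. The bound rested on CMm-EV replicate 1, without which the mean was 2785 CPM and at least 14.6-fold higher. That mean was below the CMi-EV mean of 6440 CPM, so CMm-EV was the highest group through this library only. CMm-EV replicate 1 held 52.1% of the summed CPM of this locus, and the locus did not pass in 4 of 24 alternative fits, with an FDR of up to 0.181.

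**Figure D4:**
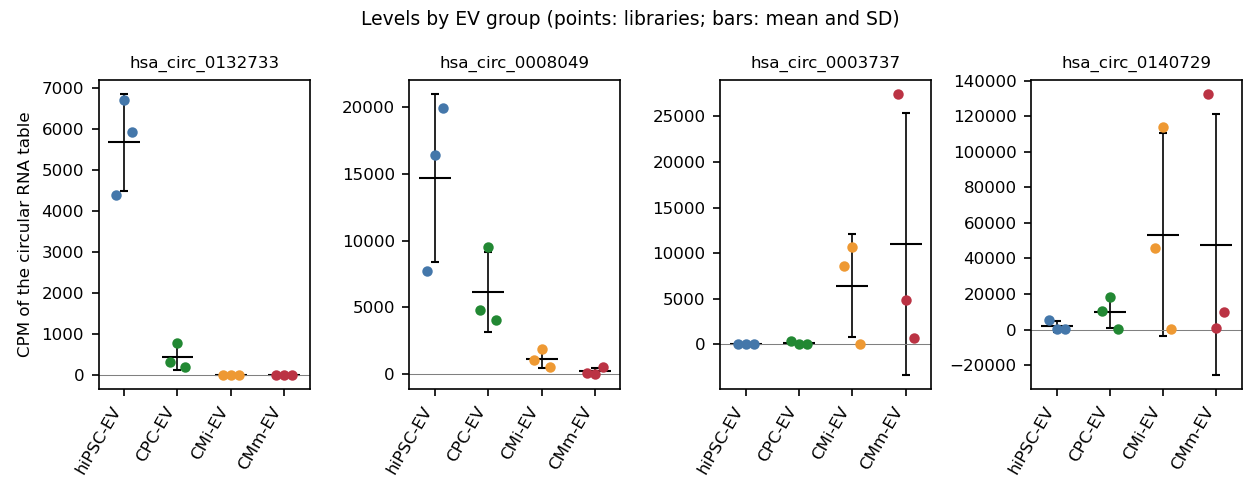
Level (CPM of the circular RNA table) of 3 loci that differed across the 4 EV groups and of hsa_circ_0140729, which did not; points are libraries, the horizontal bar is the group mean and the error bar the SD (n = 3). hsa_circ_0132733 and hsa_circ_0008049 are highest in hiPSC-EV, whereas the means of hsa_circ_0003737 and hsa_circ_0140729 in CMi-EV and CMm-EV rest on uneven libraries.

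The number of member loci called depended on single libraries. It was 5 without hiPSC-EV replicate 3 and 13 without hiPSC-EV replicate 2, with 7 and 38 of the 1052 loci called in all. It was 18, 23 and 21 without CPC-EV replicates 1, 2 and 3 (57, 57 and 63 loci in all), and 17, 15 and 22 without CMi-EV replicates 1, 2 and 3 (58, 32 and 67 loci in all). Without hiPSC-EV replicate 1 the number was 11 (27 loci in all). Without CMm-EV replicates 1, 2 and 3 it was 8, 10 and 8 (13, 17 and 13 loci in all). All 8 loci were among those called in each of these fits but the one without hiPSC-EV replicate 3, which kept 5 and lost both loci of the hsa_circ_0008049 family and the locus at rank 53. Scaling to the library totals of the authors kept 4 of the 8 and called no other member; the same 3 loci and hsa_circ_0003737 were lost. Further, summing near-equal rows to 1 count per family, chosen after seeing the data, called 4 of 77 member families, 3 of them among the 5 above, and 13 of 658 families in all.

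No locus was called between successive stages, which does not show that levels were alike, given the spread between replicates. In CPC-EV against hiPSC-EV, 0 of 95 member loci were higher and 0 lower when both an FDR of at most 0.05 and a change of 1 or more on the log2 scale were required (edgeR), with 0% of 1052 loci called in either direction, and 22 member loci and 86 loci in all had an unadjusted p under 0.05. DESeq2 called 0 as well. The lowest FDR of a member was 0.336. Without hiPSC-EV replicate 1, 3 member loci were called of 3 in all, without hiPSC-EV replicate 2 there was 1 of 4, and without CPC-EV replicate 3 there were 2 of 5. On the log2 scale the median fold change was -0.13 over the members and 0.55 over all loci tested, where 394 of the 1052 loci had no counts in at least 1 of the groups; with such loci set at the limit of 3 counts the medians were -0.13 and 0.30. The sign for the members depended on the scaling, the filter and 1 library. On the library totals of the authors the median was 0.32 over the members and 1.14 over all loci. Without hiPSC-EV replicate 1 the member median was 0.149, and it was negative with any other library left out. With a minimum of 5 CPM in each library of a group the member median was 0.0188.

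In CMi-EV against CPC-EV, 0 member loci were higher and 0 lower, again with 0% of the 1052 loci called in either direction, and 13 member loci and 60 loci in all had an unadjusted p under 0.05 (edgeR, lowest member FDR = 0.301; 0 calls by DESeq2). Values were higher on average in CMi-EV for 59 member loci and lower for 36, with a median log2 fold change of 0.27 against -0.27 over all loci, or 0.27 and -0.0038 with loci at 0 set at the limit. This direction was not stable. Without the filter 44 members were higher and 51 lower, with a median of -0.079, scaling to table totals alone gave 50 and 45 with a median of 0.086, and the replicate block gave 48 and 47. Of the alternatives, leaving out CPC-EV replicate 3 moved the count most, with 14 loci called, 6 of them members. Without the filter 4 loci were called, 3 of them members.

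In CMm-EV against CMi-EV, 0 member loci were higher and 0 lower, with 0% of loci called in either direction, and 1 member locus and 46 loci in all had an unadjusted p under 0.05 (edgeR, lowest member FDR = 0.177; 0 calls by DESeq2). As many member loci were higher on average as lower, 46 each, and the median log2 fold change was 0 over the members and over all loci, also with loci at 0 set at the limit; 483 of the 1052 loci and 5 of the members had no counts in at least 1 of these groups. The balance depended on the scaling, the filter and 1 library. On the library totals of the authors 34 were higher and 58 lower (member median -0.416). There were 38 and 54 with the size factors of DESeq2, and 41 and 54 on table totals alone. With TMM there were 34 and 58 without CMm-EV replicate 2. A minimum of 5 CPM in each library of a group gave 32 higher and 51 lower, and no filter gave 46 each. Dispersions from all 12 libraries gave 40 and 52. Leaving out any 1 of the 6 libraries gave 0 calls.

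The spread between replicates was large for these loci. The median coefficient of variation of CPM over the member loci was lowest in CPC-EV, at 48.8%, with 64.7% in hiPSC-EV and with 68.0% and 62.1% in the cardiomyocyte groups CMi-EV and CMm-EV. Over all 1052 loci, the common biological coefficient of variation of the fit across the 4 groups was 176%. A count of 0 in at least 1 library was found for 35 of the 95 loci, and the number of member loci with counts was 82 to 92 per library. The highest group mean was in hiPSC-EV for 28 loci, in CPC-EV for 17, in CMi-EV for 22 and in CMm-EV for 28.

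Libraries were nonetheless more alike within than between groups over the member loci. Pearson's r of log2 CPM plus 50 over the 95 loci, which are not independent, had a mean of 0.522 over the 12 pairs of replicates and of 0.311 over the 54 pairs from different groups. By group pair, the mean was 0.508 between CMi-EV and CMm-EV, 0.409 between hiPSC-EV and CPC-EV and 0.337 between CPC-EV and CMi-EV, and it was 0.103 between hiPSC-EV and CMm-EV. CMi-EV libraries were thus as close to CMm-EV libraries as to their own replicates, for which the mean was 0.444. These values are a description of libraries that also differ in depth.

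**Figure D5:**
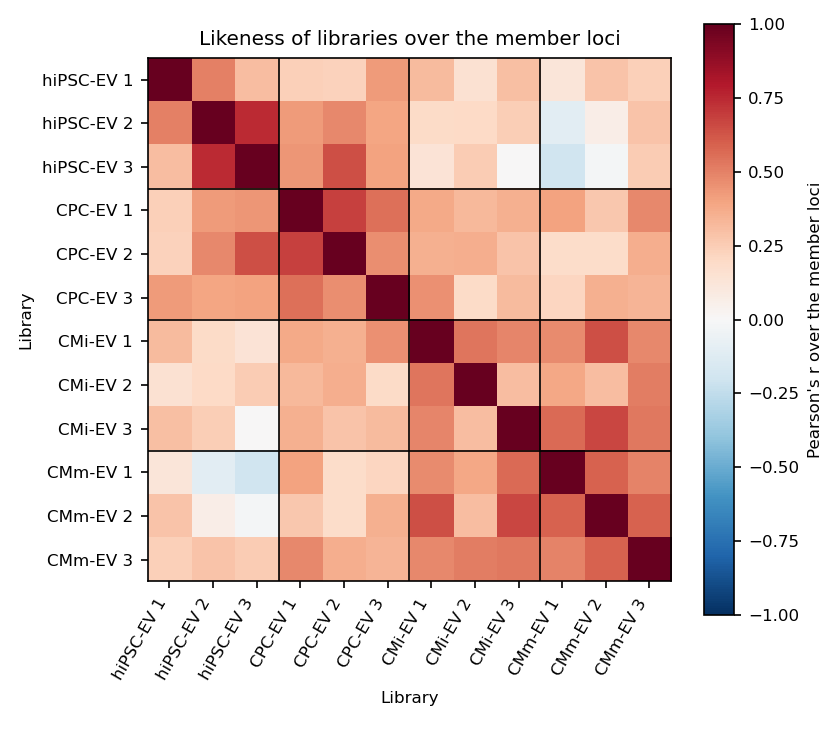
Pearson's r between each pair of the 12 libraries over the 95 member loci, on log2 of CPM plus 50; black lines separate the EV groups. The mean between the 2 cardiomyocyte groups was 0.508, the highest between groups. CMi-EV replicate 2 was lower, with 0.310 both with CMi-EV replicate 3 and with CMm-EV replicate 2. The lowest values lie between hiPSC-EV and CMm-EV (mean 0.103).

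Fragments counted on annotated transcripts in the same libraries were in order of the labelled stage for part of the marker lists. Whether they came from linear or circular RNA was not tested. Of 8 cardiomyocyte genes, all 8 had counts, and TTN, which encodes titin, was the most abundant. Their summed level, in CPM of the annotated transcripts, was 87.8, 88.7 and 17.9 in hiPSC-EV, 1821, 1471 and 2191 in CPC-EV, 13687, 12835 and 14472 in CMi-EV, and 21274, 15705 and 7459 in CMm-EV. In this sum the hiPSC-EV, CPC-EV and cardiomyocyte groups did not overlap, whereas CMi-EV and CMm-EV did. TTN made up most of the sum, with means of 57.0, 1260, 9737 and 11213 CPM in order of stage. ACTN2 had a mean of 14.1 CPM in CPC-EV and 12.3 CPM in CMi-EV, whereas the other genes of the list had higher means in CMi-EV.

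For 8 genes of pluripotent cells the sum was 806, 738 and 507 CPM in hiPSC-EV, 291, 467 and 659 CPM in CPC-EV, 157, 22.01 and 54.8 CPM in CMi-EV, and 7.61, 55.8 and 3.40 CPM in CMm-EV. CPC-EV replicate 3 was above hiPSC-EV replicate 3, so that these 2 groups overlapped. All 8 genes had counts, and they did not move together. The most abundant, the RNA-binding protein gene LIN28A, had a higher mean in CPC-EV than in hiPSC-EV, 334 against 184 CPM. POU5F1, which encodes the core pluripotency factor OCT4, had a mean of 211 CPM in hiPSC-EV, or 135 CPM without hiPSC-EV replicate 1, and fell to 24.03 CPM in CPC-EV, or 0.296 CPM without CPC-EV replicate 1, and had 0 counts in every CMi-EV and CMm-EV library. Any relation of the member loci to these transcripts was not tested.

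Of 7 cardiac progenitor genes 5 had counts, with 3.25, 0 and 2.10 CPM in hiPSC-EV, 251, 396 and 88.6 CPM in CPC-EV, 33.7, 120 and 205 CPM in CMi-EV, and 563, 189 and 88.5 CPM in CMm-EV. HAND2, a transcription factor gene of the developing heart, was the most abundant of them, and ISL1 and NKX2-5 have no row in the table of annotated transcripts. The list was near 0 in hiPSC-EV, and the other groups overlapped. Of 7 endoderm and liver genes 2 had counts, led by the apolipoprotein gene APOB, with at most 151 CPM in a library and with no row for ALB, APOA1, APOA2, TTR and FGB. None of the 5 haemoglobin genes has a row in that table either.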

How the data were processed

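Small RNA libraries of 12 EV samples, 3 independent cultures in each of 4 groups, were analysed from the tables of the authors. According to the study's methods and the submitters' processing notes, reads were processed with exceRpt on hg38. The expected counts deposited by the authors need not be whole and were rounded to whole numbers. The RPM deposited by the authors served for library totals in 1 alternative. CPM were computed on table totals. The reference set of circular RNAs and the handling of shared reads are not given in the sources used here. Rows of identical counts (tolerance 1e-06) were merged to 1 locus, and loci with at least 30 counts summed over the 12 libraries were tested.

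Loci were tested in edgeR 4.0.16 (quasi-likelihood F-test, R 4.3.3) with TMM scaling and Benjamini-Hochberg adjustment over all tested loci, across the 4 groups on 12 libraries (FDR of at most 0.05) and between successive stages on 6 libraries (also a log2 fold change of at least 1). DESeq2 1.42.0 was an alternative. The fits were checked on simulated counts: they recovered known changes at a small spread, and few of them at the spread fitted to the real libraries. The share of circular RNA was tested with an exact permutation test. Wilson 95% intervals of single-library shares were within 0.022 percentage points on either side for circular RNA among 5 classes and 0.897 for members among circular RNA. Named loci were the 10 with the highest mean CPM, the rows at the limit of the rule, and at most 2 identifiers per direction among the loci called, since no host genes were used here; other called loci are described without identifiers. The largest family's first row was named after its values were seen. Members and lists were chosen with earlier results of these data known. Other settings included the scaling, the filter, unmerged and unrounded counts, the replicate block and each library left out.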

Additional observations from a re-analysis of the deposited data

How the results depend on the processing

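Across the 4 EV groups, 16 loci and 8 member loci were called by edgeR. Scaling to the library totals behind the RPM of the authors gave 4 loci, all of them members. Without the filter there were 33 loci and 13 members, with a minimum of 5 CPM in each library of a group 60 of 612 loci and 12 of 94 members, and with DESeq2 29 loci. Near-equal rows summed to families gave 13 of 658 families and 4 members. Leaving out each library in turn gave 7 to 67 loci and 5 to 23 members. The causes of these shifts were not tested.

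The replicate number as a block gave 29 loci and 16 members across the 4 groups and 0 between successive stages. No pairing by number was seen. Of 18 same-numbered pairs, 0 had a correlation of deviations from the group means above 0.1 (-0.0936 to 0.0519). The best match carried the same number in 10 of 36 combinations. This does not show that the libraries were unpaired, since pairs with other numbers were below 0.1 as well (highest 0.0885).

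In CPC-EV against hiPSC-EV, where 0 were called, there were 2 loci and 1 member without the filter and 5 loci and 4 members with filterByExpr, and 0 to 5 loci and 0 to 3 members with each library left out. In CMi-EV against CPC-EV, there were 4 loci and 3 members without the filter, 1 locus, a member, with dispersions from all 12 libraries, and 0 to 14 loci and 0 to 6 members with each library left out. In CMm-EV against CMi-EV, filterByExpr called 1 locus, no member, and leaving out libraries 0.

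The share of circular RNA gave p = 0.0384 by the exact permutation test without miRNA in the classes, where no library was left out. For the share of all 5 classes, the exact permutation test gave p = 0.192 to 0.987 with each library left out. Of the 100 rows, other rankings retained 80 to 96 and leaving out a library 91 to 99. The alternative with 1 row per host gene was not run, since no host genes were used here. Libraries had 11653 to 38287 circular RNA counts, and the member with the fewest had 313 over the 12 libraries; the part of depth in the calls was not tested.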
